A study of Mus musculus with 2 samples.

Results

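The measurements concern 10 of the 32285 genes counted in each library, chosen by symbol and each present once in both libraries. Nfkb1, Nfkb2, Rel, Rela and Relb encode the 5 subunits of the transcription factor NF-kB. Nfkbia, Tnfaip3, Nfkbid, Nfkbiz and Bcl3 encode proteins that restrain or reshape its activity. Their levels were measured in CD8 T cells as a whole and by state, in conventional CD4 T cells, regulatory T cells, natural killer (NK) cells and myeloid cells, all gated on marker genes other than the 10. In CD8 cells 8 of the 10 reached 20 CPM (UMIs scaled to a fixed total over all genes of a gate) in a library, while Nfkbid and Bcl3 stayed below. All 10 reached it in each of the other broad cell types.

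NF-kB proteins work as dimers that rest in the cytoplasm, held by IkB inhibitors, until an antigen receptor, a costimulatory receptor or an inflammatory cytokine activates the IKK kinases. IKK marks IkB-alpha, the product of Nfkbia, for destruction, and dimers containing Rela or Rel then enter the nucleus and drive survival, cytokine and proliferation genes. Nfkb1 and Nfkb2 encode precursors whose processed forms bind DNA but carry no activation domain of their own, and Relb with processed Nfkb2 product forms the slower alternative pathway used downstream of several TNF receptors. The pathway switches itself off through its own targets. Newly made IkB-alpha strips dimers from DNA, and Tnfaip3 encodes A20, a ubiquitin-editing enzyme that dismantles receptor signalling complexes upstream of IKK. Nfkbid, Nfkbiz and Bcl3 encode nuclear IkB proteins, which bind dimers on DNA and raise or lower transcription depending on the promoter. In T cells, Rel is needed for the development of regulatory T cells and for much of the response to antigen.

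The study sorted cells bearing CD45, which marks blood-derived cells, and CD90.2, which marks T cells and some innate lymphocytes, from tumours of C57BL/6 mice. It compared 1 library labelled WT with 1 library labelled Dapl1-KO. Both came from the same kind of sort and the same strain, and were made with the 10x Genomics 3′ v3 chemistry, which counts unique molecular identifiers (UMIs) at transcript ends. The sources used here give neither the tumour, nor the ages of the mice, nor the number of animals per library. With 1 library per label there is no replicate check and no test anywhere below. Intervals are exact 95% intervals that cover counting error only, so a difference outside its interval is larger than counting error and may still be smaller than the spread between animals. Where a pair of values is given without labels, the library labelled WT comes first and the library labelled Dapl1-KO second.

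The libraries held 154408101 and 206322042 UMIs over 16673 and 19662 barcodes. Of these barcodes, 13132 occurred in both libraries. Of each shared barcode the larger copy was used if its depth was 2 times that of the smaller or more; 21 barcodes failed this and were dropped from both. The filters left 9865 and 11156 cells (median depth 7895 and 9190.5 UMIs), and 58.2% and 65.2% of them fell into a gate. In the library labelled WT 73.8% of cells had Xist and no Y-linked UMI, and in the library labelled Dapl1-KO 71.4% had a Y-linked UMI and no Xist, so sex and label cannot be told apart. Dapl1 stood at 38.6 and 31.0 CPM in CD8 cells (2682 and 3030 UMIs). The sources used here do not say where the deletion lies in the gene, so these 3′ tags do not check the labels. The gates held 4063 and 5291 CD8, 374 and 309 conventional CD4, 833 and 925 regulatory T, 426 and 624 NK and 48 and 126 myeloid cells. Of the myeloid cells 45 and 113 were monocytes or macrophages and 3 and 13 dendritic cells. The defining markers fitted the gates. The T cell receptor gene Trac stood at 457 and 539 CPM in CD8 cells and at 20.5 and 26.5 CPM in NK cells, and the macrophage gene Lyz2 at 2335 and 2077 CPM in myeloid cells and at 2.86 and 3.28 CPM in CD8 cells.

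Several of these genes carry binding sites for NF-kB itself near their start, which is the physical basis of the feedback described above, so the starts of 4 of them are shown. They come from RefSeq on the build GRCm38.p6, and positions count from the first transcribed base as 1. The table used holds windows of 300 bases for 7 of the 10 genes (12 windows, some genes having several starts), while Nfkb1, Relb and Nfkbiz are named only. Capitals mark bases that match the NF-kB consensus on either strand. For Nfkbia the window is chr12:55492598-55492897 on the minus strand, for Nfkb2 (the first of 3 windows) chr19:46304487-46304786 on the plus strand, for Rel chr11:23770920-23771219 on the minus strand, and for Tnfaip3 (the second of 2 windows) chr10:19015361-19015660 on the minus strand.
Nfkbia: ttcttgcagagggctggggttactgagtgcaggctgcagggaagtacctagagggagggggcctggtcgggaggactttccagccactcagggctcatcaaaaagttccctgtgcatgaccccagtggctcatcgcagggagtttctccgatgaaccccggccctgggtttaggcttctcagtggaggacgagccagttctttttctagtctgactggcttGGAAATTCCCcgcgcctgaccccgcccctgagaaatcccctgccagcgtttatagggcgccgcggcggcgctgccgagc
Nfkb2: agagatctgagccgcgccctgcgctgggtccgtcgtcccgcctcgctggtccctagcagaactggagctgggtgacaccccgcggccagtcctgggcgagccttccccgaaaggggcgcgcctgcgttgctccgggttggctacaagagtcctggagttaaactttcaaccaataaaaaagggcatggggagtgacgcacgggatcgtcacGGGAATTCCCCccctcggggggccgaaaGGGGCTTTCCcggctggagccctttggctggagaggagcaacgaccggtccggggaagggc
Rel: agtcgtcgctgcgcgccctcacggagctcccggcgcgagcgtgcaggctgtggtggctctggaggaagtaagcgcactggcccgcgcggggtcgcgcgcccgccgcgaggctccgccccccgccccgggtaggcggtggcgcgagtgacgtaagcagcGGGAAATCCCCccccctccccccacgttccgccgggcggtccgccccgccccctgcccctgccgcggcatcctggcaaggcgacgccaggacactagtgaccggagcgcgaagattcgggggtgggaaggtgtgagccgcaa
Tnfaip3: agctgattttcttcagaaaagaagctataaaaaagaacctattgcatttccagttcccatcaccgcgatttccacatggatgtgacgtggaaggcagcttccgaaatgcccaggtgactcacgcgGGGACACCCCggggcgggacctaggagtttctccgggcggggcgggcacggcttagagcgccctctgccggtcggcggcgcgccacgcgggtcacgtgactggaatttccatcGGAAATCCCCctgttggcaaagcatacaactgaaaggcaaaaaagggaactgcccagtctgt

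The Nfkbia window held 1 match, which reads GGGAATTTCC on the opposite strand, at positions -29 to -20. The Nfkb2 window held overlapping matches over positions -39 to -29, among them GGGAATTCCC, and a separate GGGGCTTTCC at -11 to -2. The Rel window held overlapping matches at -92 to -82, and the Tnfaip3 window held GGGACACCCC at -125 to -116 and GGGGATTTCC, on the opposite strand, at -12 to -3. These 4 windows were picked because they hold a match; the first Tnfaip3 window had none. Of the remaining genes Bcl3 had GGGACTTCCC on the opposite strand at positions 3 to 12, and the second of 3 Nfkbid windows had matches at -226 to -217 and -181 to -172. Counted over all windows, the NF-kB consensus occurred in 6 of the 7 genes and 8 of the 12 windows, against 4.51% of all 32851 mouse windows of the same length. Windows 2 and 3 of Nfkb2 overlap and share 1 match. The single Rela window had no match to these letters. A match describes the sequence and not binding in these cells.

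Across cell types, CD8 T cells taken as a whole had the lowest level of 7 of the 10 genes in both libraries. These were Nfkb1, Rel, Nfkbia, Nfkbid, Nfkbiz, Tnfaip3 and Bcl3, and of the 5 types drawn in the plot of levels, monocytes or macrophages had the highest level of Nfkb1, Rel, Rela, Nfkbia, Nfkbiz and Bcl3. The few dendritic cells (3 and 13) stood higher for Nfkb1, at 295 and 311 CPM, and in the library labelled Dapl1-KO for Rel, at 540.5 CPM. The level in monocytes or macrophages overlapped that of the next type for Nfkb1 and Rela in both libraries. It also did so for Rel under the label WT and for Bcl3 under the label Dapl1-KO. The sort for CD90.2 was not aimed at myeloid cells, so the myeloid cells counted here need not stand for those of the tumour. Conventional CD4 and regulatory T cells each exceeded CD8 cells by 1.5-fold in both libraries for the same 7 genes, namely Nfkb1, Rel and all 5 inhibitors. Nfkb2, Rela and Relb did not pass that limit in both libraries, though Nfkb2 in conventional CD4 over CD8 cells was 0.623-fold under the label WT. Cycling cells gave 31405042 of the 69480184 and 54329311 of the 97823223 UMIs behind the CD8 level. Nfkb1 and Nfkbia were lower in every CD8 state than in conventional CD4, regulatory T and NK cells, but the others were not. Under the label WT, Nfkbiz stood at 99.7 CPM in naive or central memory cells and 86.3 CPM in regulatory T cells. Rel stood at 134 CPM in progenitor-like cells and 115 CPM in conventional CD4 cells there.

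**Figure D1:**
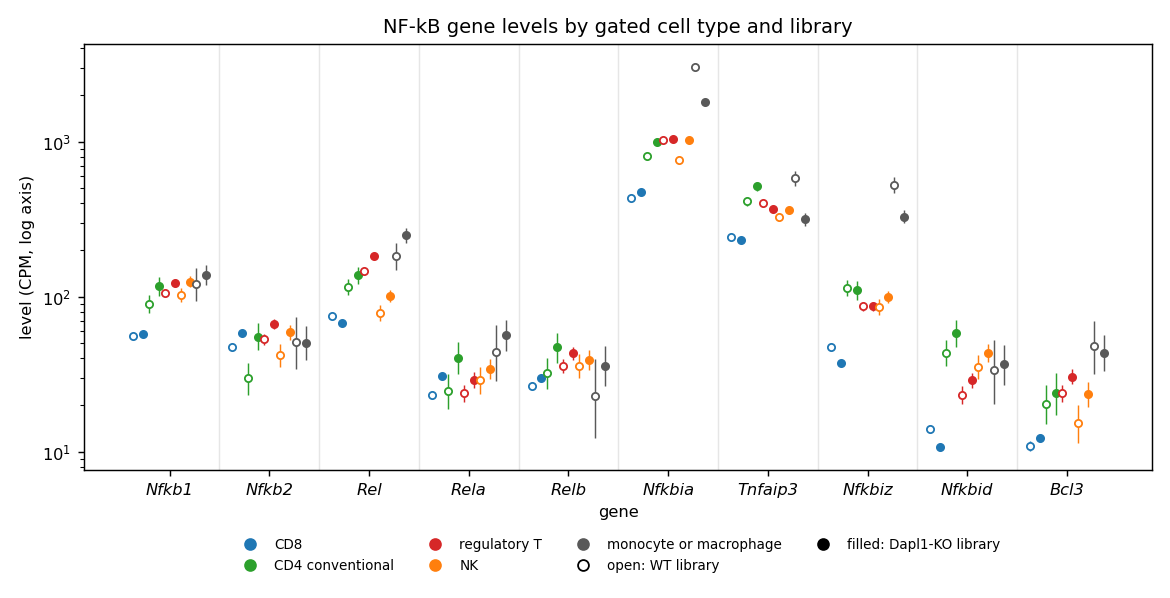
Level of each of the 10 genes (CPM, log axis) in 5 gated cell types, with open symbols for the library labelled WT, filled symbols for the library labelled Dapl1-KO and bars for exact 95% Poisson intervals. The CD8 gate as a whole (blue) sits lowest for Nfkb1, Rel, Nfkbia, Nfkbid, Nfkbiz, Tnfaip3 and Bcl3, and Nfkbia in monocytes or macrophages reaches 3044 CPM and 1795 CPM.

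Among the subunits, Nfkb1 stood at 55.7 and 57.6 CPM in CD8 cells, 89.3 and 116 CPM in conventional CD4 cells, 105 and 122 CPM in regulatory T cells, 102 and 125 CPM in NK cells and 120 and 137 CPM in monocytes or macrophages. CD8 cells were set apart from every other type, while regulatory T, NK and myeloid levels overlapped within counting error in each library. Rel, which encodes c-Rel, ran in a clearer order. It stood at 182 and 248 CPM in monocytes or macrophages, 145 and 184 CPM in regulatory T cells, 115 and 137 CPM in conventional CD4 cells, 78.6 and 100 CPM in NK cells and 75.3 and 67.6 CPM in CD8 cells. In the library labelled Dapl1-KO no 2 neighbours in that order overlapped, whereas in the library labelled WT NK and CD8 cells overlapped and so did the 2 highest types. Rela, the main activating subunit of the classical pathway, ranged only from 23.3 CPM in CD8 cells to 29.1 CPM in NK cells among the lymphocytes labelled WT, and from 29.1 CPM in regulatory T cells to 40.3 CPM in conventional CD4 cells among those labelled Dapl1-KO. Relb, the activating subunit of the alternative pathway, ranged from 26.7 to 35.8 CPM and from 29.9 to 46.9 CPM across the lymphocyte types. Its highest values came from dendritic cells, at 344 and 317 CPM, which rest on 3 and 13 cells and on 7 and 51 UMIs. Nfkb2, the partner of Relb, was the only gene lower in conventional CD4 than in CD8 cells in both libraries (29.6 against 47.5 CPM and 55.2 against 58.4 CPM), and in the library labelled Dapl1-KO the 2 levels overlapped.

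Among the inhibitors, Nfkbia stood at 434 and 473 CPM in CD8 cells, 762 and 1016 CPM in NK cells, 804 and 999 CPM in conventional CD4 cells, 1020 and 1039 CPM in regulatory T cells and 3044 and 1795 CPM in monocytes or macrophages. CD8 cells were lowest and myeloid cells highest in each library, and in the library labelled Dapl1-KO the other 3 types overlapped in part. Counted by cells rather than molecules, after each cell was thinned to 3000 UMIs, an Nfkbia UMI was found in 57.2% and 66.1% of CD8 cells, 67.5% and 81.1% of NK cells, 67.1% and 82.6% of conventional CD4 cells and 85.0% and 86.6% of regulatory T cells. Without thinning the CD8 shares were 84.4% and 91.1%. Lyz2, which T cells should lack, was found in 0.896% and 0.941% of the thinned CD8 cells.

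Nfkbiz, the gene of the nuclear inhibitor IkB-zeta, had the widest range of the 10 when dendritic cells are left aside. It stood at 47.3 and 37.5 CPM in CD8 cells, 86.3 and 86.7 CPM in regulatory T cells, 86.0 and 99.9 CPM in NK cells, 113 and 110 CPM in conventional CD4 cells and 525 and 327 CPM in monocytes or macrophages. Myeloid cells thus stood 10.8-fold and 8.15-fold above CD8 cells over the whole myeloid gate. Nfkbid, the gene of the nuclear inhibitor IkB-NS, was highest in conventional CD4 cells, at 43.4 and 58.0 CPM, and lowest in CD8 cells, at 14.0 and 10.8 CPM, ratios of 3.10-fold and 5.39-fold. Tnfaip3 stood at 242 and 231 CPM in CD8 cells, 327 and 359 CPM in NK cells, 403 and 364 CPM in regulatory T cells and 411 and 515 CPM in conventional CD4 cells. In monocytes or macrophages it stood at 581 and 315 CPM, so its highest type differed between the libraries. Bcl3, which encodes a nuclear IkB protein with an activation domain, stood at 10.9 and 12.3 CPM in CD8 cells and at 23.7 and 30.4 CPM in regulatory T cells.

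Set against CD8 cells with a limit of 1.5-fold in both libraries, 7 of 10 genes were higher in regulatory T cells, where 11.0% of the 5127 genes compared passed, and none was lower (3.57% of genes). Rel was 1.93-fold and 2.72-fold higher there, Nfkbia 2.35-fold and 2.20-fold, and Bcl3 2.17-fold and 2.48-fold. The median log2 ratio of the 10 genes was 1.02, against 0.11 over all genes compared. In conventional CD4 cells the same 7 were higher (11.3% of genes) and none lower (13.7%), with a median of 0.89 against -0.05. In NK cells 4 were higher, namely Nfkb1, Nfkbia, Nfkbid and Nfkbiz (12.1%), and none lower (13.7%), with a median of 0.62 against -0.06. In myeloid cells Nfkb1, Rel, Rela, Nfkbia, Nfkbid, Nfkbiz and Bcl3 were higher (25.8%) and none lower (26.3%), with a median of 1.41 against -0.16. Nfkbid and Bcl3 stayed below 20 CPM in CD8 cells, so they entered these comparisons only through the other cell type. Regulatory T cells did not exceed conventional CD4 cells for any of the 10 (17.6%). Nfkbid was lower in them (0.535-fold and 0.496-fold; 6.67% of genes), while the 6 other genes shared by both CD4 types lay within the limit.

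The calls in NK cells were the same 4 genes under all 7 alternatives that gave a value. In regulatory T cells the count ran from 5 to 8, and Nfkb1, Rel, Nfkbia and Bcl3 were called under every alternative. In conventional CD4 cells it fell to 3 after thinning, 4 with per-cell means and 2 among cells with a Y-linked UMI and no Xist, leaving Nfkbid and Nfkbiz called under all. In myeloid cells it fell to 5 after thinning, which lost Rela and Nfkbid. It fell to 6, without Rela, under a scaling total without mitochondrial, ribosomal and heat-shock genes. That total shifted every gene in myeloid over CD8 cells by -0.45 and -0.34 (log2).

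Within CD8 cells the alternative subunit Nfkb2 and the nuclear inhibitors differed in opposite directions between naive and exhausted states. Naive or central memory cells had the least Nfkb2 and nearly the most Nfkbid, Nfkbiz and Bcl3. The PD-1 states other than progenitor-like cells, and cells in the cell cycle, had more Nfkb2 and less Nfkbid. PD-1 is an inhibitory receptor of activated and exhausted T cells, and Tcf7 is a gene of stem-like T cells. The gates of cells with PD-1 and TIM-3, a further inhibitory receptor, set no condition on Tcf7. Progenitor-like cells, which carry PD-1 and Tcf7, stayed near the naive levels of Nfkbid and Nfkbiz. Rela, of the classical pathway, differed little between states, and Rel, Nfkb1, Relb, Nfkbia and Tnfaip3 were highest in the small progenitor-like population. Apart from Rel under the label WT, these highest levels overlapped that of the next CD8 state within counting error.

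**Figure D2:**
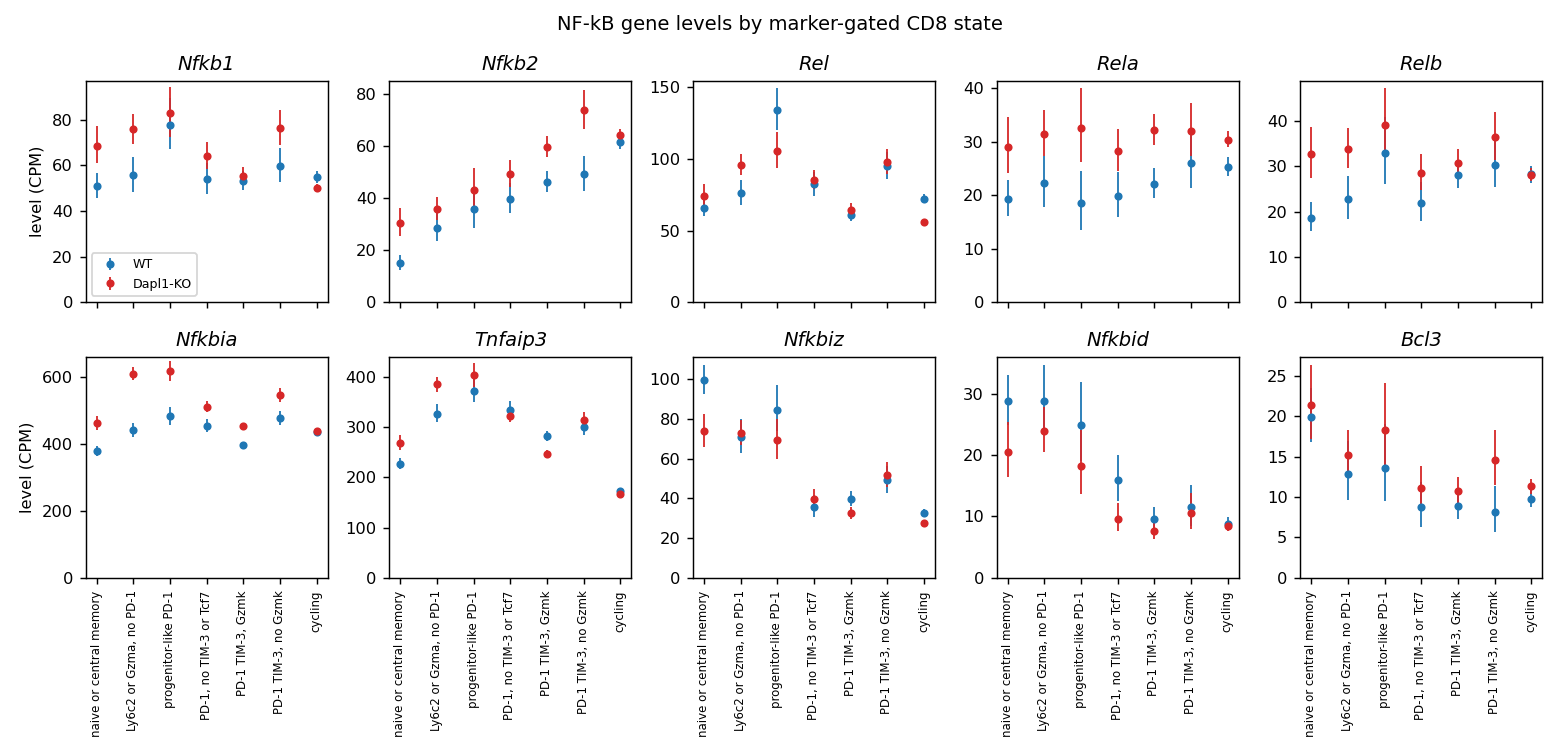
Level of each gene (CPM, linear axis from 0) in 7 marker-gated CD8 states of the libraries labelled WT (blue) and Dapl1-KO (red), with exact 95% Poisson intervals. Nfkb2 goes from 15.0 and 30.5 CPM in naive or central memory cells to 61.6 and 64.3 CPM in cycling cells, and Nfkbid and Nfkbiz go the other way.

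Nfkb2 stood at 15.0 and 30.5 CPM in naive or central memory cells (818 and 411 cells), 28.6 and 35.8 CPM in cells with Ly6c2 or Gzma and no PD-1 (464 and 893 cells) and 35.7 and 43.1 CPM in progenitor-like cells with PD-1 and Tcf7 (196 and 240 cells). It then stood at 39.7 and 49.2 CPM in PD-1 cells without TIM-3 and Tcf7 (444 and 731 cells), 46.2 and 59.8 CPM in PD-1 TIM-3 cells with Gzmk (649 and 812 cells), 49.1 and 73.7 CPM in PD-1 TIM-3 cells without Gzmk (254 and 342 cells) and 61.6 and 64.3 CPM in cycling cells (803 and 1545 cells). TIM-3 marks more exhausted cells. In the library labelled WT the 7 levels stand in ascending order. In the library labelled Dapl1-KO the order was the same but for cycling cells, which lay below PD-1 TIM-3 cells without Gzmk. Cycling cells exceeded naive or central memory cells 4.11-fold and 2.11-fold. By cells, a UMI of Nfkb2 was found in 3.92% and 7.56% of thinned naive or central memory cells and in 16.9% and 15.9% of thinned cycling cells.

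Nfkbid stood at 28.7 and 20.5 CPM in naive or central memory cells, 28.8 and 24.0 CPM in Ly6c2 or Gzma cells, 24.9 and 18.3 CPM in progenitor-like cells and then 16.0 and 9.65 CPM, 9.52 and 7.59 CPM, 11.5 and 10.5 CPM and 8.76 and 8.39 CPM in the 4 later states in the order above. The first 3 states lay above the last 4 in each library. Nfkbiz followed the same division, from 99.7 and 73.9 CPM in naive or central memory cells, 71.0 and 73.0 CPM in Ly6c2 or Gzma cells and 84.7 and 69.5 CPM in progenitor-like cells to between 27.6 and 51.9 CPM in the 4 later states. Bcl3 stood at 19.96 and 21.4 CPM in naive or central memory cells and at 9.81 and 11.3 CPM in cycling cells. By cells, Nfkbiz was found in 23.4% and 20.98% of thinned naive or central memory cells and in 7.85% and 6.73% of thinned cycling cells.

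Tnfaip3 stood at 227 and 269 CPM in naive or central memory cells, 373 and 403 CPM in progenitor-like cells and 173 and 167 CPM in cycling cells. Cycling cells had the lowest A20 message of the 7 states in both libraries. Progenitor-like cells had the highest, within counting error of the next state. Rel stood at 134 and 106 CPM in progenitor-like cells, the highest of the 7 states in each library, and at 66.1 and 74.1 CPM in naive or central memory cells. Under the label Dapl1-KO that highest level overlapped the 97.9 CPM of PD-1 TIM-3 cells without Gzmk. Nfkb1 stood at 77.9 and 83.0 CPM in progenitor-like cells and between 50.01 and 76.4 CPM in the other 6 states. Nfkbia, the cytoplasmic inhibitor, stood at 483 and 618 CPM in progenitor-like cells and at 380 and 464 CPM in naive or central memory cells. None of these 4 genes passed 1.5-fold in both libraries in any state against naive or central memory cells, Tnfaip3 in progenitor-like cells coming nearest with 1.64-fold and a value just under the limit. Rela ranged from 18.5 to 25.9 CPM and from 28.3 to 32.5 CPM over the 7 states. Relb ranged from 18.7 to 32.9 CPM and from 28.1 to 39.1 CPM.

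By the limit of 1.5-fold in both libraries against naive or central memory cells, none of the 10 genes was called in Ly6c2 or Gzma cells (higher 5.77%, lower 1.09% of genes) or in progenitor-like cells (14.1% and 1.62%). Tnfaip3 was called higher in progenitor-like cells under 4 alternatives, namely the stricter cell filter (with Rel), thinning, per-cell means and leaving out the 8% of cells with the most UMIs. Nfkb2 alone was higher in PD-1 cells without TIM-3 and Tcf7 (30.8%), in PD-1 TIM-3 cells with Gzmk (35.2%) and without Gzmk (34.3%) and in cycling cells (45.0%). A share of 1 in 10 is below that of all genes in each of these states. Nfkbid, Nfkbiz and Bcl3 were lower in PD-1 cells without TIM-3 and Tcf7 (7.65% of genes), in PD-1 TIM-3 cells with Gzmk (9.56%) and in cycling cells (12.2%), and Nfkbid was lower in PD-1 TIM-3 cells without Gzmk (8.31%). In these states Nfkbid and Bcl3 stayed below 20 CPM, a level they reached only in naive or central memory cells. The median log2 ratio of the 10 in cycling cells was -0.15, against 0.57 for all genes compared.

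Depth differed along with state, with median UMIs of 7935 and 9706 per naive or central memory cell and 35041 and 29762 per cycling cell, and detection enters the gates. When gates and levels were rebuilt on cells thinned to 3000 UMIs, Nfkb2 was still called in 3 of its 4 states and Nfkbiz in 3, while Nfkbid was called in 1 and Bcl3 in 1. Some ratios against naive or central memory cells then changed direction. Under the label Dapl1-KO, Nfkbid in PD-1 TIM-3 cells with Gzmk went to 1.19 and Bcl3 in PD-1 cells without TIM-3 and Tcf7 to 0.0262 (log2). Under the label WT, Nfkbiz in PD-1 TIM-3 cells without Gzmk went to 0.0484. Scaling to a total without mitochondrial, ribosomal and heat-shock genes shifted every gene in cycling over naive or central memory cells by -0.38 and -0.43 (log2). It took Nfkb2 out of the calls in PD-1 cells without TIM-3 and in PD-1 TIM-3 cells with Gzmk.

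Between the labels, the factor genes Nfkb2 and Rela and the inhibitor genes Nfkbia and Bcl3 had the greater level under the label Dapl1-KO in all 10 lymphocyte gates, which are the 7 CD8 states and conventional CD4, regulatory T and NK cells, or in 9 of them for Nfkb2 and Nfkbia under a scaling total without mitochondrial, ribosomal and heat-shock genes. In thinned cells this held in 9 gates for Rela and Nfkbia and in 5 for Bcl3. For Nfkbia it also held in 9 gates without the 8% of cells with the most UMIs and with per-cell means. The same count came with a CD8 gate of at least 1 UMI and without cells holding melanocytic markers. For Bcl3 it held in 9 gates under the stricter cell filter. Most of these differences were small, with median log2 ratios over the 10 gates of 0.35 for Nfkb2, 0.51 for Rela, 0.24 for Nfkbia and 0.31 for Bcl3. In myeloid cells Nfkbia, Nfkbiz and Tnfaip3 were lower under that label, which for Nfkbia is the opposite of the lymphocyte direction. Nfkbiz and Tnfaip3 had no common direction in lymphocytes. In the whole CD8 gate 8 genes were measured, and 6 of them lay within a log2 ratio of 0.32 either way, the limit for a call.

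**Figure D3:**
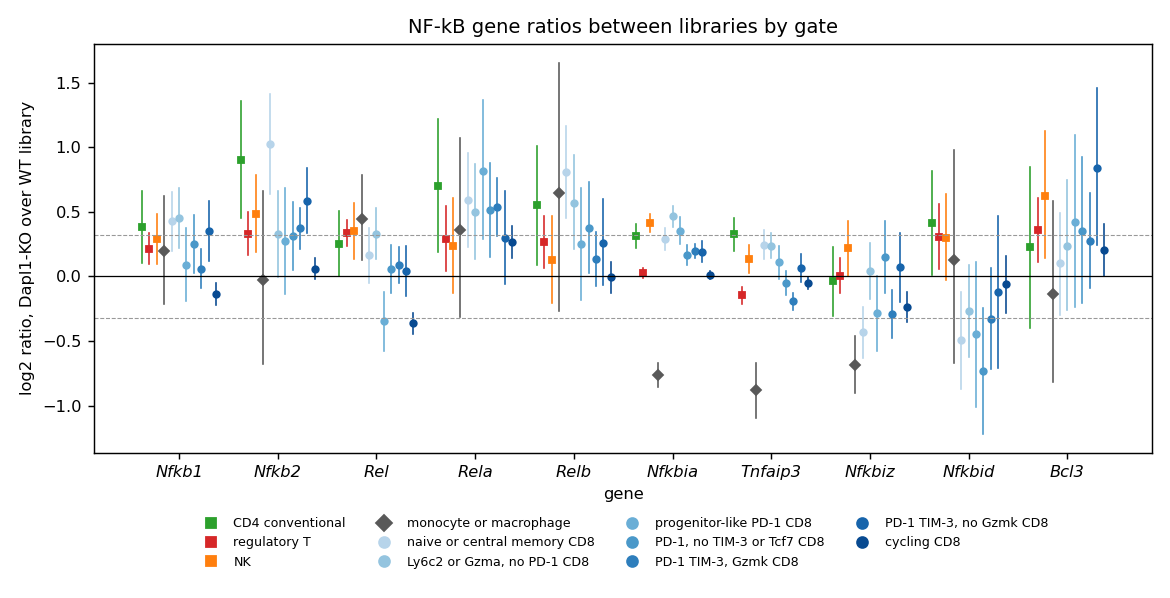
Log2 ratio of each gene, library labelled Dapl1-KO over library labelled WT, in 10 lymphocyte gates and in monocytes or macrophages, with exact 95% intervals for counting error and dashed lines at the limit of 0.32 either way. Nfkb2, Rela, Nfkbia and Bcl3 lie above 0 in all 10 lymphocyte gates as drawn. With the other scaling total Nfkb2 and Nfkbia do so in 9, and after thinning Rela and Nfkbia in 9 and Bcl3 in 5. Further alternatives leave Nfkbia or Bcl3 in 9. Nfkbia, Tnfaip3 and Nfkbiz in monocytes or macrophages (grey diamonds) lie below the lower line.

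Rela was the one gene called higher in all CD8 cells, where 13.9% of the 4617 genes measured (20 CPM or more in either library) were higher by the limit used between labels, a log2 ratio of 0.32. It stood at 23.3 and 30.6 CPM, a log2 ratio of 0.39 (95% interval 0.31 to 0.48). Nfkbiz was the one gene called lower (6.56% of genes), at 47.3 and 37.5 CPM, a log2 ratio of -0.33 (-0.40 to -0.27). Nfkb2 stood at 47.5 and 58.4 CPM, just within the limit at 0.30 (0.23 to 0.36). The median over the measured members was 0.09, against 0.07 for all genes. The mix of CD8 states differed between the libraries, naive or central memory cells being 20.1% and 7.77% and cycling cells 19.8% and 29.2% of CD8 cells. With the 7 states weighted equally the log2 ratio was 0.49 for Rela and -0.17 for Nfkbiz.

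By CD8 state, Nfkb1, Nfkb2, Rela and Relb were higher in naive or central memory cells of the library labelled Dapl1-KO (19.4% of genes higher) and Nfkbid and Nfkbiz lower (18.5%). The largest of these was Nfkb2, at 15.0 and 30.5 CPM, a log2 ratio of 1.02 (0.64 to 1.41). Thinned to 3000 UMIs per cell, the ratio of Nfkbiz there was 0.44, the other direction. Relb followed at 18.7 and 32.6 CPM, 0.80 (0.45 to 1.16). In Ly6c2 or Gzma cells 6 genes were higher, namely the 5 subunits and Nfkbia (23.3%), and none lower (8.41%). Nfkbia stood at 443 and 612 CPM there, 0.46 (0.38 to 0.55). In progenitor-like cells Rela (18.5 and 32.5 CPM) and Nfkbia (483 and 618 CPM) were higher (17.0%), and Rel (134 and 106 CPM) and Nfkbid (24.9 and 18.3 CPM) lower (13.6%). In the later states 2 genes each were higher and none lower. They were Rela and Relb in PD-1 cells without TIM-3 and Tcf7 (18.1% higher, 8.69% lower), Nfkb2 and Rela in PD-1 TIM-3 cells with Gzmk (13.2% and 10.7%) and Nfkb1 and Nfkb2 in PD-1 TIM-3 cells without Gzmk (18.7% and 8.69%). In cycling cells none was higher (8.86%) and Rel was lower (6.04%), at 72.3 and 56.2 CPM, -0.36 (-0.44 to -0.28). The intervals of Nfkb2 in Ly6c2 or Gzma cells and of Nfkbid in progenitor-like cells include 0. Rel in progenitor-like cells turned to 1.42 among cells with a Y-linked UMI and no Xist. After thinning Rela in PD-1 cells without TIM-3 and Tcf7 turned to -0.0305 and Nfkb1 in PD-1 TIM-3 cells without Gzmk to -0.46. Some of these genes reached 20 CPM only in the library in which they were higher. Under the label WT, Nfkb2, Rela and Relb stayed below it in naive or central memory cells. Rela stayed below it there in progenitor-like cells and in PD-1 cells without TIM-3 and Tcf7. Nfkbid in progenitor-like cells reached it only under the label WT. The difference between states was not tested.

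In conventional CD4 cells 6 of the 10 genes passed the limit upwards in the library labelled Dapl1-KO (21.9% of genes) and none lower (15.3%). Nfkb2 stood at 29.6 and 55.2 CPM, 0.90 (0.45 to 1.35), Rela at 24.7 and 40.3 CPM, 0.70 (0.19 to 1.22), and Relb at 32.0 and 46.9 CPM, 0.55 (0.09 to 1.01). Nfkb1, Nfkbid and Tnfaip3 followed with ratios of 0.38, 0.42 and 0.33. These rest on few molecules, 73 and 100 UMIs for Nfkb2 and 61 and 73 for Rela. The median of the 10 was 0.36, against 0.07 for all genes. In regulatory T cells Nfkb2, Rel and Bcl3 passed the limit upwards (6.67%) and none lower (11.9%), and the median was 0.28 against -0.05. That count of 3 fell to 0 with all barcodes, without the 8% of cells with the most UMIs and without cells holding melanocytic markers, whose sum in this gate was 653 and 75.6 CPM, and thinning gave 2 lower. Rel stood at 145 and 184 CPM there, 0.34 (0.24 to 0.44), whereas in cycling CD8 cells it was lower. In NK cells Nfkb2, Rel, Nfkbia and Bcl3 were higher (13.5%) and none lower (10.6%), with a median of 0.30 against 0.04. Nfkbia stood at 762 and 1016 CPM in NK cells, 0.42 (0.35 to 0.49), and Bcl3 at 15.3 and 23.5 CPM, 0.62 (0.14 to 1.12). Bcl3 reached 20 CPM there only in the library labelled Dapl1-KO, in which it was higher.

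In myeloid cells Nfkbia stood at 2973 and 1746 CPM, a log2 ratio of -0.77 (-0.86 to -0.68), Tnfaip3 at 570 and 295 CPM, -0.95 (-1.16 to -0.74), and Nfkbiz at 510 and 305 CPM, -0.74 (-0.95 to -0.52). These 3 inhibitor genes were lower in the library labelled Dapl1-KO (25.2% of genes lower), while Rel and Relb were higher (28.7%). Rel stood at 179 and 280 CPM, 0.65 (0.33 to 0.97), and Relb at 34.1 and 66.7 CPM, 0.97 (0.26 to 1.74). Dendritic cells, which had the most Relb, made up 13 of 126 myeloid cells labelled Dapl1-KO and 3 of 48 labelled WT. Among monocytes or macrophages alone the same 3 genes were lower (23.7%), with ratios of -0.76, -0.88 and -0.68, and Rel, Rela and Relb were higher (29.7%), though the intervals of Rela and Relb include 0. With the shares of all genes called this high in both directions, the counts of members here are close to the background.

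The pattern over the 10 lymphocyte gates can be set against all genes. Of 5994 genes, 10.9% lay above WT in each of the 10 gates and 6.47% below, while among the 10 members 4 lay above in each (Nfkb2, Rela, Nfkbia and Bcl3) and none below. The intervals excluded 0 in 7 gates for Nfkb2, 8 for Rela, 8 for Nfkbia and 4 for Bcl3. The ratios ran from 0.06 in cycling CD8 cells to 1.02 in naive or central memory CD8 cells for Nfkb2, from 0.24 to 0.82 for Rela, from 0.01 to 0.46 for Nfkbia and from 0.10 to 0.84 for Bcl3. Nfkb1 and Relb lay above in 9 gates, Rel in 8, Tnfaip3 in 6, Nfkbiz in 5 and Nfkbid in 3. All 10 gates come from the same 2 libraries, so they are no replicates of the label. A scaling without mitochondrial, ribosomal and heat-shock genes shifted every gene by up to -0.13 and left Nfkb2 and Nfkbia above in 9 gates and Rela and Bcl3 in 10, and thinned cells left Nfkb2 above in 10. Among cells with a Y-linked UMI and no Xist, Nfkb2, Rela and Nfkbia lay above in all 9 gates with a value and Bcl3 in 7. Such cells made up 10.3% of the library labelled WT and 71.4% of the library labelled Dapl1-KO. The origin of this minority under the label WT was not tested, so these values are no comparison of animals matched by sex.

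Other transcripts differed between the labels, to an extent that varied by gate. Of the immediate-early genes, which rise within minutes of stimulation or tissue handling, 7 of the 11 measured were lower in CD8 cells labelled Dapl1-KO (6.56% of all genes). In myeloid cells 9 of 12 were lower (25.2%) and in naive or central memory CD8 cells 11 of 12 (18.5%). The counts were 2 of 12 in conventional CD4 (15.3%), 3 of 12 in regulatory T (11.9%) and 2 of 12 in NK cells (10.6%). Those in conventional CD4 and NK cells are near the share of all genes. Fosb and Atf3 were higher in conventional CD4 cells (21.9% of all genes) and Fosb in NK (13.5%) and myeloid cells (28.7%). Jun stood at 232 and 122 CPM and Fos at 96.0 and 52.9 CPM in CD8 cells. Heat-shock genes were lower in 3 of 10 cases in CD8 (6.56% of all genes), 9 of 10 in conventional CD4 (15.3%) and 5 of 10 in regulatory T cells (11.9%). They were lower in 10 of 10 cases in NK (10.6%) and 8 of 10 in myeloid cells (25.2%). Hspa1a stood at 586 and 112 CPM in CD8 cells. The summed level of 5 melanocytic markers was 114 and 385 CPM in CD8 cells, 653 and 75.6 CPM in regulatory T cells and 10.2 and 432 CPM in myeloid cells. That of 5 fibroblast and endothelial markers was 65.7 and 6.02 CPM in CD8 cells and 8.53 and 554 CPM in myeloid cells. The part of these transcripts in the ratios above was not tested, apart from the values without cells holding 2 or more melanocytic markers, which left Nfkb2, Rela and Bcl3 above WT in all 10 lymphocyte gates and Nfkbia in 9. Without those cells the regulatory T count went from 3 higher to 0 and the lower call in CD8 cells was lost. Free macrophage RNA was low by Lyz2, which the lymphocyte gates themselves limit as a myeloid marker. It stood at 0.0395% to 0.447% of its myeloid level there. The same share of each member's myeloid level comes to at most 2.47% of the level measured. A sum of 5 macrophage transcripts stood relatively higher. It was 51.5 CPM in cycling CD8 cells labelled Dapl1-KO (Apoe 45.9 CPM), against 4708 CPM in myeloid cells. In regulatory T cells labelled WT it was 83.5 CPM (Apoe 77.5 CPM), against 8343 CPM.

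The genes around the 10 in the pathway showed few calls in CD8 cells, where 13.9% of all genes measured were higher and 6.56% lower. Of 23 IKK and upstream signalling genes 11 were measured, with none higher and Malt1 lower, at 119 and 86.7 CPM, a log2 ratio of -0.46. Malt1 encodes the protease and scaffold that links the antigen receptor to IKK and also cleaves A20. Tab2, Ikbkb and Rbck1 had ratios of -0.29, -0.18 and 0.16, and the list's median was -0.05 against 0.07 for all genes. Of 18 receptors that activate NF-kB 7 were measured. Tnfrsf9, which encodes the costimulatory receptor 4-1BB, was higher at 263 and 405 CPM, 0.62, and Il18r1, a chain of the interleukin-18 receptor, was lower at 55.7 and 36.1 CPM, -0.63. In all CD8 cells Cd28 and Tnfrsf1b had ratios of -0.29 and -0.16. Tnfrsf9 was also called higher in each of the 7 CD8 states, where 8.86% to 23.3% of all genes were. In naive or central memory cells it stood at 12.2 and 21.4 CPM, so it reached 20 CPM only in the library in which it was higher. In some states Tnfrsf1b or Tnfrsf18 was called higher as well, and in some Il18r1, Cd28, Tnfrsf4 or Tnfrsf1b was called lower.

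Of 14 other inhibitors 10 were measured in CD8 cells and 1 was called, as lower (6.56% of genes). It was N4bp1, a suppressor of cytokine responses that Malt1 cleaves, at 33.3 and 24.0 CPM, -0.48. Rnf11, Traf4 and Otulin, the last a deubiquitinase of linear chains, had ratios of -0.30, -0.27 and 0.20. Of 24 target genes 18 were measured, with 3 higher (13.9% of all genes) and 1 lower (6.56%), so both counts are close to the background. The higher ones were Ccl3 at 174 and 352 CPM, 1.02, Cxcl2 at 7.99 and 31.1 CPM, 1.96, and Cxcl10 at 6.68 and 20.1 CPM, 1.59, all chemokine genes. The lower one was the growth regulator Myc at 29.7 and 18.4 CPM, -0.69. Cxcl2 and Cxcl10 reached 20 CPM only under the label Dapl1-KO, and Myc only under the label WT. The median of the target list was 0.01. In myeloid cells 5 of 21 measured targets were higher and 11 lower, where 28.7% and 25.2% of all genes were, and the median was -0.37 against 0.03 for all genes. The lower targets included Cxcl2, Cxcl10, Ccl3 and Myc, with ratios of -1.20, -0.88, -0.64 and -1.77, while Traf1, Bcl2a1d, Sod2, Irf1 and Ccnd2 were higher. In conventional CD4 cells 6 of 7 measured receptors were higher and none lower, against 21.9% and 15.3% of all genes.

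Within PD-1 TIM-3 CD8 cells, cells were split by a UMI of Fos, an immediate-early gene, after thinning to 3000 UMIs, a comparison added after the levels had been seen. Of the cells labelled WT 105 had such a UMI and 796 had none, and of those labelled Dapl1-KO 127 had one and 1021 had none. Cells with Fos had more Nfkb1, Nfkbid, Nfkbiz and Tnfaip3 in both libraries by the limit of 0.32 on the log2 scale (9.44% of genes higher), and none of the 9 genes measured was lower in both (5.20%). Tnfaip3 stood at 451 CPM with and 323 CPM without Fos under the label WT and at 454 and 299.7 CPM under the label Dapl1-KO, ratios of 1.39-fold and 1.52-fold. Nfkbiz stood at 73.0 CPM with and 39.4 CPM without, and at 68.2 CPM and 36.9 CPM, and Nfkbid differed 3.61-fold and 3.35-fold on 10 UMIs among the cells with Fos in each library. The intervals of these 3 excluded 0 in both libraries and those of Nfkb1 in neither. Nfkbid stood at 31.7 CPM with and 8.79 CPM without Fos under the label WT, and at 26.2 and 7.84 CPM under the label Dapl1-KO. It thus reached 20 CPM, and entered the comparison, only through the cells with Fos, in which it was higher. Nfkbia differed by 1.10-fold and 1.24-fold, and Rel by 2.06-fold and 1.10-fold. The median over the 9 genes was 0.52, against 0.03 for all genes.

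**Figure D4:**
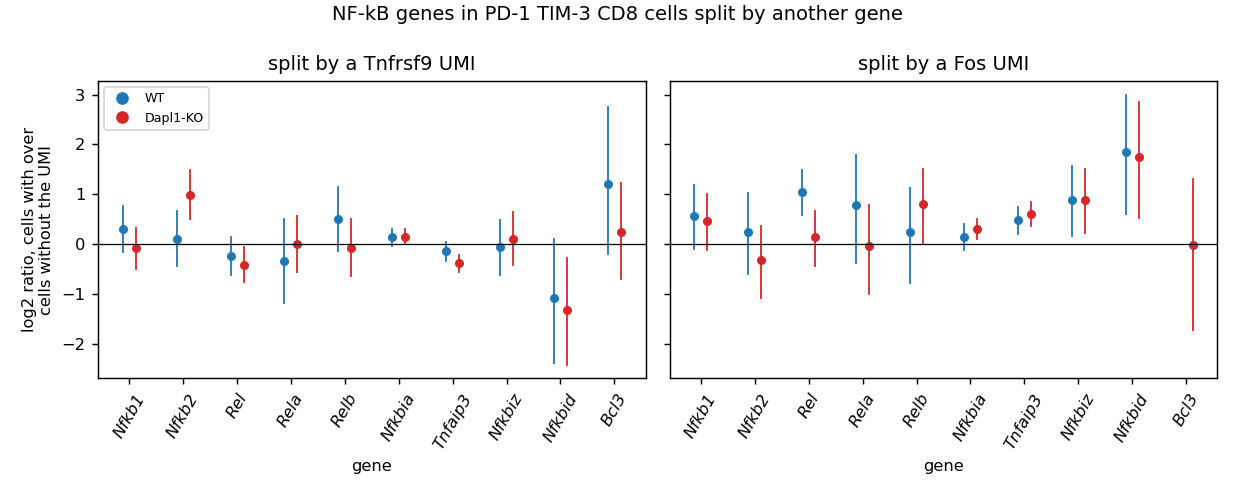
Log2 ratio of each gene in PD-1 TIM-3 CD8 cells with over cells without a UMI of Tnfrsf9 (left) or Fos (right), in the libraries labelled WT (blue) and Dapl1-KO (red), with exact 95% intervals for counting error after thinning to 3000 UMIs. Tnfaip3, Nfkbiz and Nfkbid lie above 0 in both libraries with Fos, and Nfkb2 lies above 0 with Tnfrsf9 beyond its interval in the library labelled Dapl1-KO only; Bcl3 has 0 UMIs among cells with Fos labelled WT and is not drawn there.

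Split by a UMI of Tnfrsf9 instead, a receptor that signals through NF-kB, none of the 10 genes was called in both libraries (6.44% of genes higher, 6.54% lower). Nfkb2 stood at 45.5 CPM with and 42.1 CPM without Tnfrsf9 in the library labelled WT, 1.08-fold, and the other library had 74.2 CPM with and 37.7 CPM without, 1.97-fold. That difference between the libraries was not tested. Tnfaip3 differed by 0.903-fold and 0.765-fold. Nfkbid, at 0.473-fold and 0.398-fold, was below the level minimum of 20 CPM on both sides.

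Likeness between genes was described by Pearson's r of log2 levels over gates and libraries, with 22 points over all gates and 14 over the CD8 states. The points share 2 libraries and differ in depth, so these values are descriptions. Over the CD8 states Nfkbid and Nfkbiz ran together (r = 0.90), and Nfkb2 ran against both (-0.85 and -0.77). Nfkb1 ran with Nfkbia (0.86) and Rel (0.84). Among 2873 genes the nearest to Nfkb2 were Lcp1, Dad1 and Chchd2 (0.99, 0.97 and 0.97), and the nearest to Nfkbiz were Il7r, Chd2 and Rhob (0.96, 0.96 and 0.96). Tespa1 was nearest to Nfkbid (0.98), Cir1 to Tnfaip3 (0.96), Gpr132 to Nfkb1 (0.86) and Arf4 to Nfkbia (0.88). Nfkb1 itself was nearest to Rel.

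Over all gates, with 3767 genes compared, the genes nearest to Nfkbia were Ifrd1, Pim1 and Snx2 (0.97, 0.95 and 0.95), and Pim1 was also among the 3 nearest to Nfkb1 and to Bcl3 (0.92 and 0.93). The nearest to Rel were Jarid2, Cpd and Tnip1 (0.89, 0.89 and 0.88), Tnip1 being an A20-binding inhibitor of the same pathway. Nr4a1, an early gene of antigen receptor signalling, was nearest to Nfkbid (0.93). For Nfkbiz they were Selenop, Spop and Bcl10 (0.97, 0.96 and 0.96); Selenop is a macrophage gene. Tmem258 was nearest to Nfkb2 (0.95), Trafd1 to Rela (0.86), Psenen to Relb (0.81) and Ptger4 to Tnfaip3 (0.86).

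The genes lie on 7 chromosomes. On GRCm38, Nfkb1 lies at chr3:135584655-135691547, Nfkb2 at chr19:46304320-46312385, Rela at chr19:5637483-5648130, Nfkbia at chr12:55489410-55492647, Tnfaip3 at chr10:19000910-19015657 and Nfkbiz at chr16:55811375-55838899. Relb, Nfkbid and Bcl3 all lie on chromosome 7, Relb at 19606217 to 19629438 and Bcl3 at 19808462 to 19822770 as near neighbours on the minus strand. Rel lies at chr11:23736847-23770970. Nfkb1 is overlapped by the model Gm43430 on the same strand, and Nfkb2 and Bcl3 by genes on the opposite strand. The sources used here do not say whether the counting used strand, so reads of these overlapping genes may not be fully told apart.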

How the data were processed

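Single-cell RNA sequencing libraries, 1 per label, were deposited by the authors as raw UMI counts per gene and barcode, made with Cell Ranger 5.0.0 on mm10, per the submitters' processing notes. The members and gene lists were chosen with earlier results of these data known. Of barcodes in both libraries the copy with at least 2 times the UMIs was kept. Cells needed 500 genes and at most 10% mitochondrial counts. Cells were gated on marker UMIs with no clustering; no member was used. A CD8 cell, for example, needed 2 or more UMIs of Cd3 genes, 2 or more of Cd8a and Cd8b1, and none of Cd4 or Foxp3. No doublet caller was run. The lymphocyte gates limited myeloid and T cell subset markers but set no condition on melanocytic, B cell, fibroblast or endothelial markers. Of the CD8 cells, 18 and 71 held 2 or more melanocytic markers. An alternative left out the 8% of cells with the most UMIs.

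Counts were summed per gate and scaled to CPM of all genes. Between labels, a gene at 20 CPM or more in a library was called at a log2 ratio of 0.32 either way; between cell types, at 1.5-fold in both libraries. Ratio intervals are exact conditional binomial, level intervals exact Poisson and both 95%. Shares used cells thinned to 3000 UMIs, leaving out shallower cells. All 10 members are named; of each pathway list, up to 4 measured genes with the largest log2 ratio in CD8 cells are named. Likeness used genes at 50 CPM or more and log2(CPM + 1). Alternatives changed the fold limit, level minimum, copies, cell filter, thinning, per-cell means, scaling total and CD8 gate. A further alternative used only cells with a Y-linked UMI and no Xist. Leaving out cells with melanocytic markers was added after the data were seen. The ratio, its interval and the limit between labels were tested on simulated Poisson counts with the totals of the CD8 gate, and thinning on its total. The smaller gates, the gating, the limit in both libraries and spread beyond counting error were not simulated. Python 3.11.15, numpy 2.4.6, scipy 1.17.1 and pandas 2.3.3 were used.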

Additional observations from a re-analysis of the deposited data

Results flagged for a closer look

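Nfkbia and Tnfaip3 went opposite ways in different cell types between the labels. The log2 ratio of Nfkbia, library labelled Dapl1-KO over library labelled WT, was 0.42 in NK cells and -0.77 in myeloid cells. That of Tnfaip3 was 0.33 in conventional CD4 cells and -0.95 in myeloid cells. With 1 library per label the difference between cell types was not tested. Over the alternatives the myeloid ratio of Nfkbia ran from -0.81 to -0.44 and that of Tnfaip3 from -1.05 to -0.15.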

How the results depend on the processing

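No paired analysis was possible because each genotype has 1 library. Counts of members called between the labels were 1 higher and 1 lower in CD8, 6 higher in conventional CD4, 3 higher in regulatory T, 4 higher in NK, and 2 higher and 3 lower in myeloid cells. At 1.5-fold CD8 cells had 0 higher and 0 lower, conventional CD4 2, regulatory T 0 and NK 1 higher. At a 50 CPM minimum CD8 cells had 0 and 0, and with no minimum 2 lower. With all barcodes CD8 cells had 0 and 0, regulatory T 0 higher and myeloid 5 higher. Without the 8% of cells with the most UMIs CD8 cells had 2 higher, regulatory T 0 and myeloid 4. After thinning CD8 cells had 2 higher and 0 lower, conventional CD4 3 higher, regulatory T 2 lower, NK 1 lower and myeloid 6 higher. With per-cell means CD8 cells had 3 higher and myeloid 5. With the other scaling total CD8 cells had 0 higher and 2 lower, conventional CD4 3 higher and regulatory T 1 higher. Among cells with a Y-linked UMI and no Xist CD8 cells had 4 higher and 0 lower and regulatory T 8 higher; NK and myeloid cells gave no value there, with 13 and 3 cells labelled WT. Without melanocytic-marker cells CD8 cells had 0 lower, regulatory T 0 higher and myeloid 5 higher.

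Of single log2 ratios between labels, 937 alternatives kept their value within its interval, 208 moved and 5 reversed. Those were Nfkbid in conventional CD4 (-0.17) and Rel in progenitor-like cells (1.42) among Y-linked cells, and, thinned, Nfkbiz in naive or central memory (0.44), Rela in PD-1 cells without TIM-3 (-0.0305) and Nfkb1 in PD-1 TIM-3 cells without Gzmk (-0.46). Between cell types 1379 kept, 390 moved and 11 reversed. Among Y-linked cells labelled WT, conventional CD4 over CD8 gave Nfkb1 -0.12, Rel -0.17, Nfkbia -0.18 and Bcl3 -1.40. Against naive or central memory cells there, Rel in progenitor-like cells gave -0.57 and Relb in PD-1 TIM-3 cells without Gzmk -0.59. Thinned, Rela in myeloid over CD8 cells gave -0.0011. Thinned and against naive or central memory cells, Bcl3 in PD-1 cells without TIM-3 gave 0.0262, Nfkbid in PD-1 TIM-3 cells with Gzmk 1.19, Nfkbiz in those without Gzmk 0.0484 and Relb in cycling cells -0.0612. The cause was not tested. Low counts limit Bcl3, Nfkbid and Rela in the smaller gates.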
